A study of Rattus norvegicus with 20 samples.

Results

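The mRNA of INS-1 832/13 cells in which *Piezo1* and *Piezo2* were silenced together (si-P1+2, 4 libraries) was compared with that of cells in which *Piezo2* alone was silenced (si-P2, 4 libraries). INS-1 832/13 is a clonal insulin-secreting line from a rat insulinoma that also carries a human proinsulin gene. Both groups received the *Piezo2* siRNA pool, so the comparison gives the effect of adding the *Piezo1* siRNA pool on that background, and no si-Ctrl library (non-targeting siRNA) enters it. The siRNA was given by lipid transfection at 25 nM, repeated after 48 h, and RNA was taken a further 48 h later. Whether si-P1+2 cells received 25 nM of each pool or in all is not stated. The groups may therefore differ in total siRNA or in *Piezo2* siRNA, which cannot be told apart from the addition of the *Piezo1* pool. Whether the 4 libraries of a group are separate cultures is not stated either, so the p-values measure the spread between these libraries. One siRNA pool was used per gene, so loss of the channel and other actions of the *Piezo1* siRNAs cannot be told apart. The members are 15802 of 23487 genes, namely those detected above 0 in 10 or more of the series' 20 libraries. The series also holds si-P1, si-Ctrl and untransfected cells, with 4 libraries each. Values are normalized counts, which are reads per gene divided by the size factor of the library.

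PIEZO1 and PIEZO2 are large trimeric cation channels that open when the membrane is stretched and let calcium into the cell. In β cells, calcium entry triggers the fusion of insulin granules, and glucose causes the cells to swell. Calcium also acts on transcription through calmodulin-dependent kinases, calcineurin and cAMP-responsive factors. PIEZO1 is the form better known from non-neuronal tissues, and PIEZO2 the form of touch and proprioception.

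Reads per library ran from 27448137 to 56926609 in si-P1+2 and from 25314021 to 51918772 in si-P2. The β-cell markers were present, with a summed level of 642500 to 719600 normalized counts in si-P1+2 and 615100 to 700300 in si-P2. Of the markers of other cells, *Cpa1* was at 0 in all 8 libraries and the acinar sum reached only 1.16 in si-P1+2 and 1.95 in si-P2. The fibroblast sum was 195 to 204 in si-P1+2 against 112 to 182 in si-P2, nearly all of it *Pdgfra* (log2 fold change 0.41, adjusted p = 0.0892, limma), with *Col1a1* at no more than 1.95 in any library. In bulk libraries, fewer cells of a type and less RNA per cell cannot be told apart. One library outside the comparison stood apart: si-Ctrl replicate 3 had a median correlation of 0.944 with its own group, against 0.986 to 0.992 for the other 19 libraries of the series.

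*Piezo1*, the gene the added siRNA targets, had 145, 112, 135 and 118 normalized counts in the 4 si-P1+2 libraries, against 356, 350, 386 and 300.0 in the si-P2 libraries. Every si-P1+2 library lay below every si-P2 library. The log2 fold change was −1.44 with a standard error of 0.11 (adjusted p = 3.27e-04, limma), taken, as are all fold changes here, on the log2(normalized count + 1) scale. For this single gene the 2-sided exact permutation test gave p = 0.0286, the smallest it can give for 4 against 4. *Piezo2* was near the floor in both groups, at 6.71, 16.3, 4.76 and 12.4 in si-P1+2 and 3.71, 12.7, 5.895 and 5.02 in si-P2, and the ranges overlapped (log2 fold change 0.49, adjusted p = 0.514, limma). Both groups had received its siRNA, but its level was also low without it. The mean was 13.2 in si-P1, 11.2 in si-Ctrl and 11.5 in untransfected cells, against 10.0 in si-P1+2 and 6.83 in si-P2. At such counts the extent of *Piezo2* silencing cannot be read from these libraries.

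Across all genes, 822 were higher in si-P1+2 than in si-P2 at an adjusted p under 0.05 (5.20% of those tested) and 958 were lower (6.06%), together 1780 or 11.3% (limma). The changes were mostly small. The median size of the called log2 fold changes was 0.31 (quartiles 0.24 and 0.45), 81.1% were under 0.5, and only 49 higher and 11 lower genes passed 2-fold. The 4 si-P1+2 values did not overlap the 4 si-P2 values for 2837 genes (18.0%). The main fit has no replicate block, although libraries with one replicate number went together. With the replicate number as a block the calls were 2535 higher (16.04%) and 2606 lower (16.49%), with all 1780 genes among them in the same direction. These block shares are the background for every list count with the block below. The count moved when single libraries were left out. It was 1198, 708 and 783 without si-P2 replicates 1, 2 and 3, and 748, 948 and 869 without si-P1+2 replicates 2, 3 and 4. It rose to 2119 without si-P2 replicate 4 and to 2164 without si-P1+2 replicate 1. The part of the smaller group size in these moves was not tested.

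**Figure D1:**
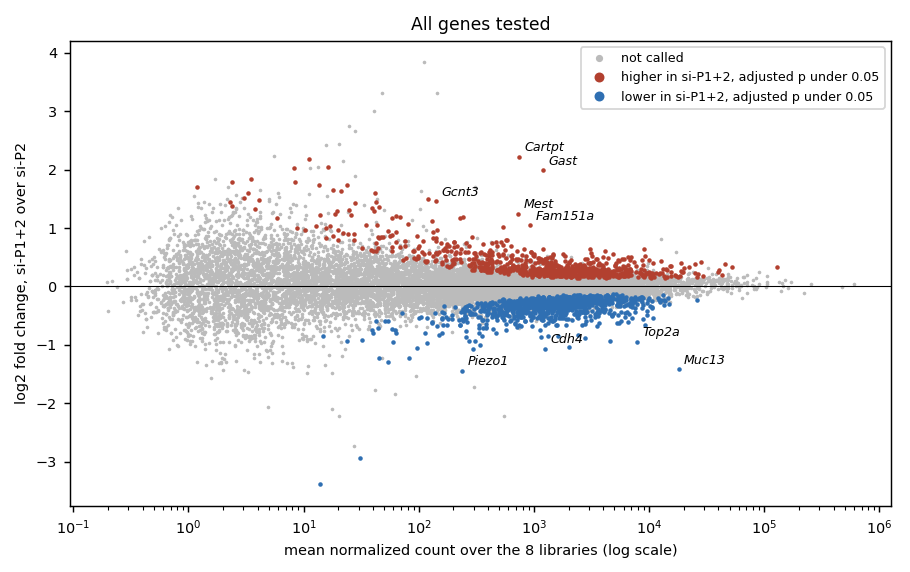
Log2 fold change of si-P1+2 over si-P2 (vertical axis) against the mean normalized count over the 8 libraries (horizontal axis, log scale) for each gene tested, coloured where the adjusted p was under 0.05. The 822 genes called higher and 958 called lower mostly lie close to 0, while *Cartpt* and *Gast* stand at 2.22 and 1.99 and *Piezo1* and *Muc13* at −1.44 and −1.41.

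Among called genes with a mean of at least 100 in one group, the largest rises were in 2 peptide precursors. Below that level 1 gene with a change of larger size, a fall, was *Nat8b*, picked after its values were seen, with means of 8.78 in si-P1+2 and 53.2 in si-P2. Over all genes tested, called or not, the log2 fold changes ran from −3.39 to 3.85. *Cartpt* encodes the precursor of CART, a peptide of the brain and of islet cells, and had 952, 843, 1788 and 1276 normalized counts in si-P1+2, against 300.3, 188, 446 and 152 in si-P2. The lowest si-P1+2 value was above the highest si-P2 value (log2 fold change 2.22 with standard error 0.32 and adjusted p = 0.00408, limma). *Gast*, the precursor of gastrin, the acid-stimulating hormone of the stomach that is also made in the fetal pancreas, had 1601, 1449, 2823 and 1762 in si-P1+2, against 428, 391, 625 and 439 in si-P2. The groups again did not overlap (log2 fold change 1.99 with standard error 0.20 and adjusted p = 9.35e-04, limma). In both genes replicate 3 was the highest library of its group in si-P1+2 and in si-P2.

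Of the 677 genes called higher that had a mean of at least 100 in the higher group, no overlap and a gene symbol, the 12 with the largest log2 fold change were taken by rule. After *Cartpt* and *Gast* came genes of neurons, glycans and growth control. *Mmd2*, a membrane protein of the progestin and adipoQ receptor family, had 179, 140, 260.1 and 121 in si-P1+2, against 85.9, 50.8, 87.5 and 31.4 in si-P2 (1.49, adjusted p = 0.0191, limma). Its call was lost without si-P2 replicate 2 (adjusted p = 0.0626) and without si-P1+2 replicate 3 (adjusted p = 0.0518). *Gcnt3*, which branches the sugar chains of mucins, had 174, 192, 242 and 225 against 59.9, 63.4, 101 and 80.3 in si-P2 (1.46, adjusted p = 0.00182, limma). *Mest*, an imprinted gene expressed from the paternal copy, had 715, 958, 1054 and 1434 against 384, 358, 481 and 491 in si-P2 (1.247, adjusted p = 0.00432, limma). *Nefl* encodes the light neurofilament chain of axons and averaged 333 ± 68.0 in si-P1+2 and 150 ± 49.2 in si-P2 (SD, n = 4 each), a log2 fold change of 1.19.

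*Ptn*, the heparin-binding growth factor pleiotrophin, averaged 317 ± 66.3 in si-P1+2 and 138 ± 21.3 in si-P2 (SD, n = 4 each; log2 fold change 1.18). *Hs3st2*, which adds 3-O-sulfate to heparan sulfate, averaged 107 ± 11.4 and 52.9 ± 20.3 in the same order of groups (1.07), and its call was lost without si-P2 replicate 2 (adjusted p = 0.0521, limma). *Htra3*, a secreted serine protease, rose by 1.11. *Ldhb*, the heart-type subunit of lactate dehydrogenase, whose partner *Ldha* is kept low in β cells, had 579, 726, 735 and 867 in si-P1+2, against 333, 349, 360 and 372 in si-P2 (1.03, adjusted p = 0.00115, limma). *Fam151a*, with the smallest standard error of the 12 (0.06), had 1181, 1255, 1338 and 1215 in si-P1+2, against 601, 566, 617 and 626 in si-P2 (1.05, adjusted p = 4.53e-05, limma).

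**Figure D2:**
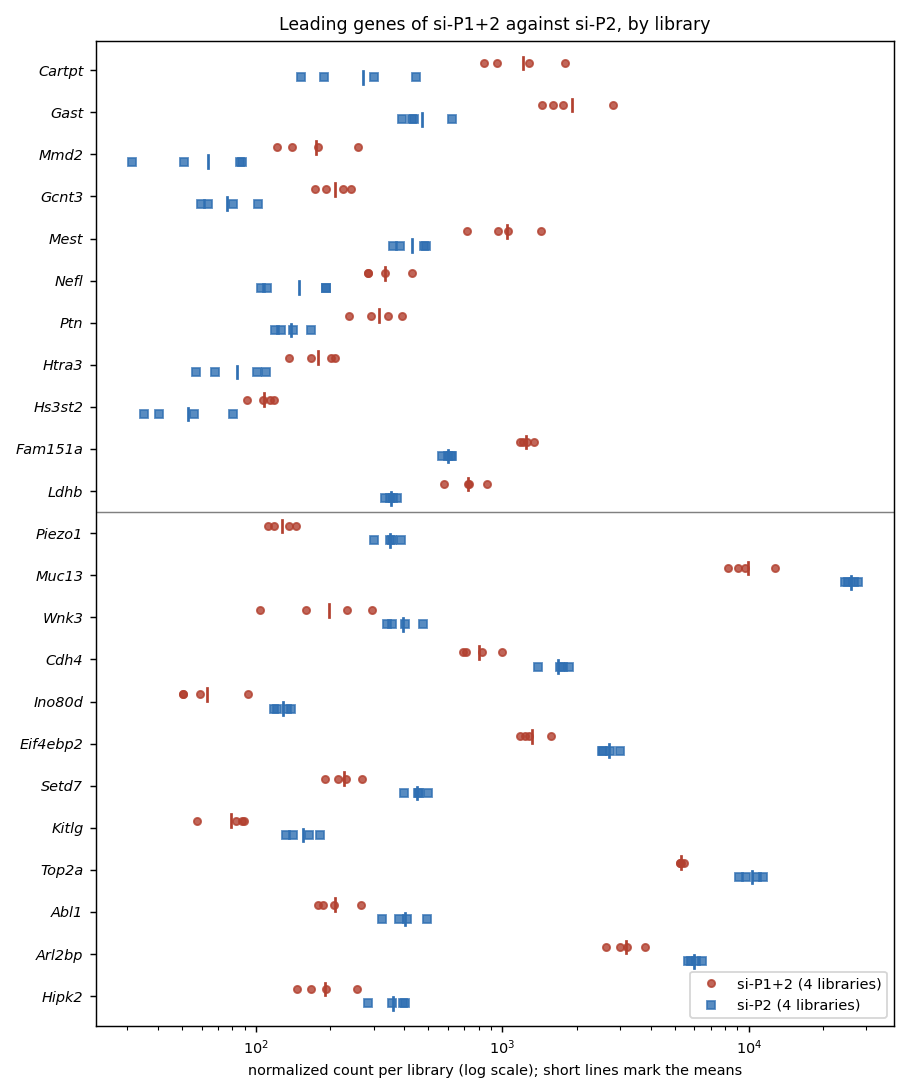
Normalized count (log scale) of 11 of the leading higher genes and the 12 leading lower genes in each si-P1+2 library (circles, upper row of each gene) and each si-P2 library (squares, lower row), with a short line at each group mean. The groups do not overlap for any of the genes drawn, which the rule for choosing them required.

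*Muc13*, a transmembrane mucin of epithelia, had the largest fall after *Piezo1* among genes with such a mean. It had 12830, 9019, 9694 and 8208 in si-P1+2, against 27830, 24680, 25360 and 26720 in si-P2 (log2 fold change −1.41 with standard error 0.11 and adjusted p = 3.27e-04, limma). *Top2a*, the topoisomerase that untangles DNA in dividing cells, had 5260, 5467, 5272 and 5334 in si-P1+2, against 9174, 10820, 9735 and 11480 in si-P2 (−0.94, adjusted p = 1.85e-04, limma). Its 4 si-P1+2 values spanned a far narrower range than its si-P2 values.

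*Eif4ebp2*, which holds back cap-dependent translation, had 1581, 1285, 1175 and 1234 in si-P1+2, against 2731, 2996, 2552 and 2537 in si-P2 (−1.04, adjusted p = 4.50e-04, limma). *Arl2bp*, a binding partner of the small GTPase ARL2, averaged 3161 ± 485 in si-P1+2 and 6016 ± 348 in si-P2 (−0.94). *Cdh4*, R-cadherin, averaged 807 ± 141 and 1686 ± 205 in the same order (−1.07; SD, n = 4 each). The kinases *Wnk3* (−1.08), *Abl1* (−0.94) and *Hipk2* (−0.93), the lysine methyltransferase *Setd7* (−0.999), the chromatin remodelling subunit *Ino80d* (−1.05) and *Kitlg*, the ligand of the receptor KIT (−0.96), made up the rest of the 12. *Wnk3* was the least steady of them. It had 296, 103, 234 and 159 in si-P1+2, against 401, 356, 474 and 340.1 in si-P2, and was called in 4 of the 8 fits that left out one library (largest adjusted p = 0.0848, without si-P2 replicate 3, limma).

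The promoters of the leading genes are shown because 2 of the higher genes carry a sequence element that cAMP-driven factors bind. In the 300 bases around the start site (250 before and 50 after), 19 of the 24 leading genes had a promoter in the RefSeq table. The cAMP response element, TGACGTCA on either strand, was present in 2 of the 10 higher genes with a promoter and in 0 of the 9 lower ones, against 1.83% of all 33469 promoters. The AP-1 site TGANTCA was in 1 of the 10 higher and 0 of the 9 lower genes (7.33% of all promoters). The E-box CACGTG was in 0 and 2 (6.42%). No comparison was made of these counts, and a match describes the sequence only. The 150 bases before the start site (RefSeq, GRCr8) are printed 5′ to 3′ with the cAMP response element in capitals, for *Cartpt* at chr2:32991236-32991385 on the minus strand, where it begins at position −142, and for *Hs3st2* at chr1:185387313-185387462 on the plus strand, where it begins at −63.
Cartpt: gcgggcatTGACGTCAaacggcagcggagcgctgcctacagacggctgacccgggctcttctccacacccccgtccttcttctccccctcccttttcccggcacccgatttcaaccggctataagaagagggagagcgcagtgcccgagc
Hs3st2: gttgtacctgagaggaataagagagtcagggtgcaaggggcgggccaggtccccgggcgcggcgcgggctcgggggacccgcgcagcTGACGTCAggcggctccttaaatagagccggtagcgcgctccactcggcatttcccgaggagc

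The genes of antigen presentation by MHC class I, which cut, load and display cytosolic peptides, were called higher in 14 of 25 tested members and lower in 0, against 5.20% and 6.06% of all genes. Its median was 0.52 on the log2 scale, against 0.01 over all genes. *Tapbp*, tapasin, which bridges the peptide transporter and the class I molecule, had 3482, 3912, 4063 and 3647 in si-P1+2, against 2728, 2577, 2707 and 2461 in si-P2 (0.53, adjusted p = 0.00136, limma). *Psmb10*, a catalytic subunit of the immunoproteasome, had 743, 885, 912 and 938 against 547, 549, 578 and 596 in si-P2 (0.61, adjusted p = 0.00233, limma). *B2m*, the invariant light chain, had 6559, 8091, 7779 and 8226 against 5326, 5373, 5392 and 5509 in si-P2 (0.50, adjusted p = 0.00286, limma). In all 3 genes every si-P1+2 library was above every si-P2 library. *Tapbpl*, a tapasin-related editor of peptides, and the heavy chain gene *RT1-CE5* rose by 0.52 and 0.63. Reads of near-identical class I heavy chains can be shared between copies, so the values of single RT1 genes are uncertain. The list had 10 to 16 members higher when one library was left out in turn. With the replicate block it had 19, where 16.04% of all genes were higher.

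The interferon and double-stranded RNA response list holds genes that answer viral RNA and in part siRNA itself. It had 16 of 64 members higher (25%) and 1 lower (1.56%), against 5.20% and 6.06% of all genes (median 0.22). *Ifi35* averaged 889.5 ± 53.5 in si-P1+2 and 647 ± 29.8 in si-P2 (SD, n = 4 each; log2 fold change 0.46, adjusted p = 0.00332, limma). *Parp9* had 186, 236, 233 and 251 in si-P1+2, against 142, 141, 137 and 141 in si-P2 (0.68). *Parp14*, its partner among the ADP-ribosyltransferases, rose by 0.70 and *Ifngr2*, a chain of the interferon-γ receptor, by 0.48. The higher count was 6 without si-P1+2 replicate 2 and 28 with the block, where 16.04% of all genes were higher.

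The core of the interferon response element, GAAANNGAA on either strand, was present in 5 of the 12 higher class I genes with a promoter and in 4 of the 10 other members, and in 9 of 14 higher interferon genes and 19 of 35 others, against 9.71% of all promoters. These counts were not tested. It is shown for *Tapbp* (chr20:4967878-4968027, minus strand), where 2 overlapping matches begin at −26 and −20, and for *B2m* (chr3:129549180-129549329, plus strand), where 1 begins at −150, with the matches in capitals in the 150 bases before the start site (RefSeq, GRCr8).
Tapbp: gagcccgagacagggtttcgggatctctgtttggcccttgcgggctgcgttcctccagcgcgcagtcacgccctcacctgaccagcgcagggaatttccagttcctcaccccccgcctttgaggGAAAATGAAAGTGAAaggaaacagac
B2m: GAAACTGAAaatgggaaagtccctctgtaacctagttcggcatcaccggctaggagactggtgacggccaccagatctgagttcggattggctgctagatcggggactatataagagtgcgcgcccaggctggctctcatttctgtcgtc

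Among the precursors of peptide hormones, 8 of 32 tested members were higher (25%) and 1 lower (3.12%), against 5.20% and 6.06% of all genes. Beside *Cartpt* and *Gast*, *Sct*, the precursor of secretin, had 252, 301, 285 and 285 in si-P1+2, against 169, 189, 186 and 178 in si-P2 (0.63, adjusted p = 0.00345, limma). *Nucb2*, from which nesfatin is cut, had 16140, 17340, 17820 and 17740 against 14080, 13140, 13510 and 13490 in si-P2 (0.35, adjusted p = 0.00324, limma). *Cck*, cholecystokinin, a relative of gastrin, averaged 1752 ± 262 in si-P1+2 and 1199 ± 218 in si-P2 (0.55), with its call lost in 2 of the 8 fits that left out one library (largest adjusted p = 0.0697, without si-P2 replicate 2). *Adm*, adrenomedullin, rose by 0.36 and was called in 4 of those 8 fits (largest adjusted p = 0.0696, without si-P1+2 replicate 2). The higher count was 5 without si-P2 replicate 2.

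Few of the β-cell genes themselves were called in the main fit. Of 44 tested members, 1 was higher and 1 lower (2.27% each, against 5.20% and 6.06% of all genes), with a median of −0.04. Both are granins or granin-like proteins of the secretory granule. *Scg3* had 13810, 14300, 14590 and 13510 in si-P1+2, against 12240, 12120, 11840 and 11500 in si-P2 (0.24, adjusted p = 0.00943, limma). *Scg5*, a chaperone of the prohormone convertase PC2, averaged 24060 ± 957 in si-P1+2 and 28300 ± 1281 in si-P2 (−0.23; SD, n = 4 each), with its call lost without si-P1+2 replicate 4 (adjusted p = 0.0557). With the replicate block, 7 members were higher and 10 lower, against 16.04% and 16.49% of all genes. *Ins1* was not called (log2 fold change 0.17, adjusted p = 0.472, limma), nor were *Ins2* (−0.24, adjusted p = 0.0856) and *Pdx1* (0.11, adjusted p = 0.370), and the reads of the 2 insulin genes may be shared.

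**Figure D3:**
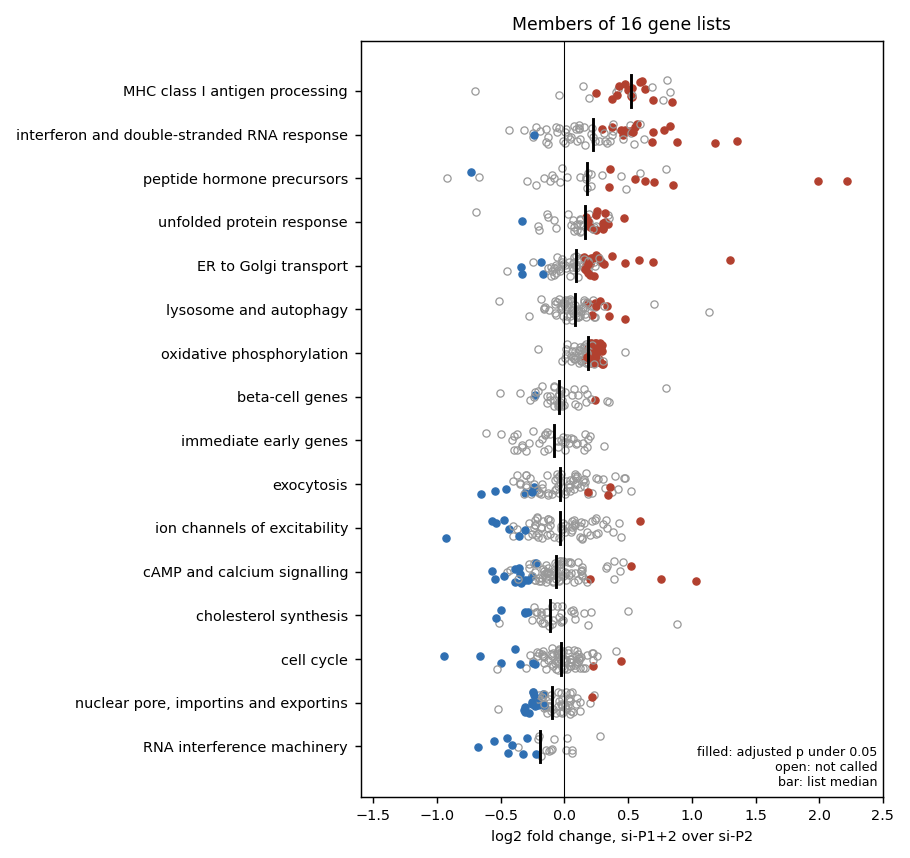
Log2 fold change of si-P1+2 over si-P2 for every tested member of 16 gene lists, filled where the adjusted p was under 0.05 and open otherwise, with a bar at the median of each list. The class I list has its median at 0.52 with 14 filled points to the right of 0, the oxidative phosphorylation list lies in a narrow band around its median of 0.185, and the RNA interference list has 8 filled points to the left.

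The lists on the stimulation and release of insulin are set against the shares over all genes, 5.20% higher and 6.06% lower, and 16.04% and 16.49% with the block. Of 76 exocytosis genes, 3 were higher (3.95%) and 7 lower (9.21%), with 10 and 22 under the block and 2 and 3 once each library's slope on the departure of si-Ctrl replicate 3 from its group (the direction of si-Ctrl replicate 3) was removed. *Syt4*, a synaptotagmin that does not bind calcium in the usual way, had 1402, 1521, 1437 and 1504 in si-P1+2, against 2203, 2311, 2316 and 2415 in si-P2 (−0.66, adjusted p = 2.28e-04, limma). *Syt7*, a high-affinity calcium sensor of granule fusion, had 10100, 8508, 8614 and 7890 against 13220, 14140, 12410 and 11510 in si-P2 (−0.55, adjusted p = 0.00433, limma). *Stx2*, a plasma membrane syntaxin, fell by 0.46 on the log2 scale. The lower count was 3 without si-P1+2 replicate 2.

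Of 70 ion channels of excitability, 1 was higher (1.43%) and 7 lower (10.0%; 6 and 20 with the block, 4 lower without si-P2 replicate 1). *Kcna2*, a delayed-rectifier potassium channel, had 1683, 1322, 1404 and 1424 in si-P1+2, against 2059, 2180, 2145 and 2047 in si-P2 (−0.54, adjusted p = 0.00254, limma). *Cacna1a*, the pore of the P/Q-type calcium channel, averaged 4825 ± 519 in si-P1+2 and 6495 ± 125 in si-P2 (−0.43). *Clcn3*, a chloride-proton exchanger of endosomes and granules, and *Kcna6*, another potassium channel, had log2 fold changes of −0.47 and −0.57. In each of these 4 genes the si-P1+2 libraries all lay below the si-P2 libraries.

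Of 93 genes of cAMP and calcium signalling, 4 were higher (4.30%) and 12 lower (12.9%; 10 and 29 with the block, 4 and 4 with the direction removed, 2 lower without si-P2 replicate 2). *Calb1*, the calcium buffer calbindin, had 519, 577, 655 and 587 in si-P1+2, against 338, 316, 367 and 358 in si-P2 (0.76, adjusted p = 0.00136, limma). *Akap12*, a scaffold for protein kinase A, rose by 0.52. *Camk2g*, a calmodulin-dependent kinase, had −0.47, and *Creb1*, the factor that binds the cAMP response element, had 228, 206, 191 and 205 against 289, 304, 324 and 296 in si-P2 (−0.55, adjusted p = 0.00481, limma). *Creb1* was not called with the direction removed (−0.26, adjusted p = 0.0858). Among 43 receptors for hormones, transmitters and nutrients in islets, of mixed coupling and with 1 ion channel (*Htr3a*) among them, 4 were higher (9.30%) and 1 lower (2.33%). *Crhr1*, the receptor of corticotropin-releasing hormone, had 1010, 1038, 1003 and 939 in si-P1+2, against 709, 702, 662 and 699 in si-P2 (0.52, adjusted p = 0.00114, limma). *Mtnr1a*, a melatonin receptor that mainly uses Gi, rose by 0.76, while *Gper1* (1.34) and *Ntsr1* (1.74) were expressed at low counts, with means of 57.4 and 36.8 in si-P1+2 and 20.9 and 10.8 in si-P2. The call of *Ntsr1* was lost without si-P1+2 replicate 3 (adjusted p = 0.0563).

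Of the 26 mechanically gated and volume-regulated channels tested, *Piezo1* among them, 3 were higher and 3 lower (11.5% each, against 5.20% and 6.06% of all genes), and 8 and 8 with the block. Among the 3 falls is the siRNA target itself. *Tmem63b*, an osmosensitive cation channel, had 4453, 4470, 4596 and 4628 in si-P1+2, against 3907, 4127, 3932 and 3945 in si-P2 (0.19, adjusted p = 0.0155, limma), with its call lost without si-P2 replicate 3. *Tmc4*, a transmembrane channel-like protein, had 0.30 and *Trpm7*, a magnesium- and calcium-permeable channel fused to a kinase, had −0.27. Both were called in 4 of the 8 fits that left out one library, with the largest adjusted p without si-P2 replicate 2 (0.0742 for *Trpm7* and 0.0814 for *Tmc4*).

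The early secretory pathway rose in part. Of 42 genes of the unfolded protein response and of folding in the endoplasmic reticulum, 13 were higher (31%) and 1 lower (2.38%). The shares of all genes were 5.20% and 6.06%, and the list median was 0.16. *Ostc*, a subunit of the oligosaccharyltransferase, had 6377, 6916, 6679 and 6926 in si-P1+2, against 5291, 4692, 4954 and 4521 in si-P2 (0.47, adjusted p = 0.00159, limma). *Sec61b* and *Sec61a1*, of the translocation channel, rose by 0.34 and 0.30, and *Pdia4*, a disulfide isomerase, by 0.30. The members named here fold and import proteins. The higher count was 7 without si-P2 replicate 2 and 27 with the block, where 16.04% of all genes were higher.

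Of 69 genes of transport between endoplasmic reticulum and Golgi, 21 were higher (30.4%) and 4 lower (5.80%), with a median of 0.09. The shares of all genes were 5.20% and 6.06%. *Kdelr3*, a receptor that returns resident proteins to the reticulum, had 726, 818, 717 and 896 in si-P1+2, against 535, 494, 450.0 and 462 in si-P2 (0.70, adjusted p = 0.00206, limma). *Tmed3*, a cargo receptor of coated vesicles, rose by 0.47, while *Sec31a*, of the COPII outer coat, had −0.34. The higher count was 7 without si-P2 replicate 2 and 36 with the block, where 16.04% of all genes were higher. Of 72 lysosome and autophagy genes, 8 were higher (11.1%) and 0 lower, against 5.20% and 6.06% of all genes. With the block 27 were higher and 6 lower, against 16.04% and 16.49% of all genes, and without si-P2 replicate 2 3 were higher. *Tmem192* led the list, with 1274, 1397, 1282 and 1380 in si-P1+2 against 972, 960.4, 929 and 966 in si-P2 (0.48, adjusted p = 0.00124, limma).

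Of 78 tested entries of oxidative phosphorylation, 28 were higher (35.9%) and 0 lower, against 5.20% and 6.06% of all genes. A positive log2 fold change was seen in 76. The changes were small and even, with a median of 0.185. *Ndufb2*, of complex I, had 3968, 4106, 4089 and 3951 in si-P1+2, against 3527, 3170, 3223 and 3406 in si-P2 (0.28, adjusted p = 0.00633, limma). The count moved more than that of most lists with the choice of libraries. It was 4 without si-P2 replicate 2, 59 with the block (where 16.04% of all genes were higher) and 0 in the fit of all 20 libraries. None of the 71 cytosolic ribosomal protein entries was called in limma (13 higher and 0 lower at an unadjusted p under 0.05, 15 and 1 with the block, 0 and 0 in edgeR, 4 and 0 in DESeq2). *Rplp0* had 146800, 145900, 141000 and 143600 in si-P1+2 and 151300, 140900, 141800 and 142100 in si-P2.

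In the 66 tested entries of the nuclear pore, importins, exportins and mRNA export, 1 was higher (1.52%) and 15 lower (22.7%). The shares of all genes were 5.20% and 6.06%, and the list median was −0.10. *Tnpo1*, transportin, had 7044, 7192, 6715 and 7261 in si-P1+2, against 8125, 9320, 8663 and 8818 in si-P2 (−0.31, adjusted p = 0.00584, limma). *Kpna1* and *Ipo5*, of the importin families, had −0.28 and −0.31, and *Nup98*, a nucleoporin that was called in 5 of the 8 fits leaving out one library, −0.24. The lower count was 3 without si-P2 replicate 2, 33 with the block (where 16.49% of all genes were lower) and 0 in the fit of all 20 libraries. With the direction of si-Ctrl replicate 3 removed, *Tnpo1* (−0.16, adjusted p = 0.0988, limma) and *Nup98* (−0.12, adjusted p = 0.1404) were not called.

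Of 22 genes of RNA interference, through which siRNA itself acts, 8 were lower (36.4%, against 6.06% of all genes), 0 higher and 14 not called (median −0.195). *Ago1*, an Argonaute protein that carries the guide strand, had 726, 556, 584 and 531 in si-P1+2, against 953, 1050, 974 and 841 in si-P2 (−0.68, adjusted p = 0.00433, limma). *Ago4* had 239, 180, 210 and 182 against 285, 322, 321 and 264 in si-P2 (−0.56), and its call was lost without si-P2 replicate 2 (adjusted p = 0.0522). *Tsnax*, of the complex that clears the passenger strand, and *Prkra*, a partner of Dicer, had −0.41 and −0.29. The lower count was 3 without si-P2 replicate 2 and 15 with the block.

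In 82 cell cycle genes, 2 were higher (2.44%) and 7 lower (8.54%), near the shares over all genes (16 and 20 with the block, 4 lower without si-P2 replicate 2). *Anln*, a scaffold of the cleavage furrow, had 1192, 1266, 1259 and 1208 in si-P1+2, against 1683, 2216, 1919 and 2027 in si-P2 (−0.66, adjusted p = 0.00136, limma). *Cdc25a*, a phosphatase that activates cyclin-dependent kinases, fell by 0.50 and *Ccnd3*, cyclin D3, rose by 0.44. Of 38 genes of cholesterol and fatty acid synthesis, 0 were higher and 5 lower (13.2%; 3 and 19 with the block, 3 lower without si-P2 replicate 2). *Srebf2*, the master regulator of that pathway, had 6011, 5990, 6270 and 6128 in si-P1+2, against 6926, 7652, 7356 and 7843 in si-P2 (−0.29, adjusted p = 0.00588, limma). None of the 40 immediate early genes was called in limma (2 higher and 5 lower at an unadjusted p under 0.05, 3 and 9 with the block, 0 and 0 in edgeR, 0 and 3 in DESeq2).

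The calls moved with a library that is not in the comparison. For each gene the difference between si-Ctrl replicate 3 and the mean of the other 3 si-Ctrl libraries was taken as a direction. Over the 11698 genes with a mean of at least 50, the log2 fold change of si-P1+2 over si-P2 correlated with that direction across genes at r = 0.467, and genes are not independent replicates. The slope of a library on this direction was 0.0197, 0.117, 0.0689 and 0.0916 in the si-P1+2 libraries and −0.0511, −0.129, −0.11 and −0.0144 in the si-P2 libraries, with no overlap, while si-Ctrl replicate 3 had 0.942. The slope ran from 0.0213 to 0.161 in si-P1 and from −0.0815 to −0.00834 in untransfected cells. The other si-Ctrl libraries had −0.0651, −0.0855 and −0.0235. Every library that received the *Piezo1* siRNA thus had a positive slope. In the 10% of genes lowest in si-Ctrl replicate 3, 29.1% were called lower and 0.598% higher in si-P1+2. In the 10% highest there, 20.9% were called higher and 0.598% lower. The part of this direction in the results was not tested. Taking the direction out may also take out change that goes with the *Piezo1* siRNA, which was not tested either.

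**Figure D4:**
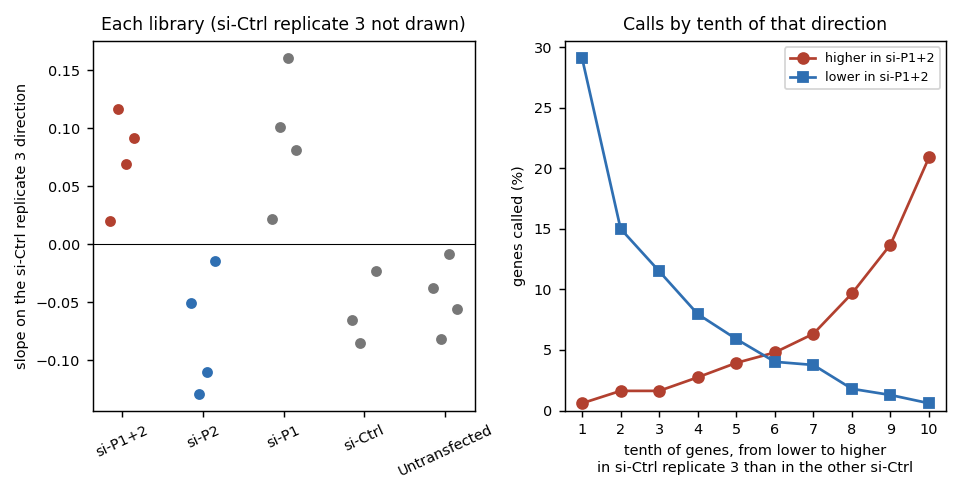
Left, slope of each library (points, by group) on the difference between si-Ctrl replicate 3 and the other si-Ctrl libraries, with the 4 si-P1+2 libraries above 0 and the 4 si-P2 libraries below it; si-Ctrl replicate 3 itself is not drawn. Right, percent of genes called higher (circles) or lower (squares) in si-P1+2 in 10 equal bins of genes ordered by that difference, with the share called lower at 29.1% in the lowest bin and the share called higher at 20.9% in the highest.

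When each library's slope on this direction was taken out, a choice made after seeing the data, 510 genes were higher (3.23%) and 415 lower (2.63%), and 786 of the 1780 calls (44.2%) were kept. With the replicate block as well, 1539 of them (86.5%) were kept. The lists differed in what remained. Of the 14 class I calls 13 remained, with 14 members higher in all, and of the 16 interferon calls 11 remained, with 12 higher in all. Higher members numbered 9 in the unfolded protein response and 15 in transport between reticulum and Golgi. The oxidative phosphorylation list had 4 higher and 1 lower, the nuclear pore list 2 lower, cAMP and calcium signalling 4 lower, and RNA interference 4 lower. *Piezo1* (−1.43), *Cartpt* (1.93), *Gast* (1.80) and *Muc13* (−1.41) stayed called, and of the 24 leading genes *Wnk3* (−0.61, adjusted p = 0.148, limma) and *Ino80d* (−0.61, adjusted p = 0.0534) were not. Of the other genes described above, *Trpm7* (−0.03, adjusted p = 0.707), *Ago4* (−0.26, adjusted p = 0.0953), *Cck* (0.38, adjusted p = 0.145), *Tmc4* (0.25, adjusted p = 0.0696), *Adm* (0.32, adjusted p = 0.0512) and *Ndufb2* (0.15, adjusted p = 0.0504) also lost their calls in that fit.

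The same siRNA was also given without the *Piezo2* siRNA, in si-P1 against si-Ctrl, a comparison that shares no library with this one. Of the 1780 called genes, 1410 (79.2%) had the same direction there, against 60.1% of all genes tested. Of the called rises 87.5% and of the called falls 72.1% had it. Leaving out si-Ctrl replicate 3 for this share was not among the alternatives listed at the outset. Without that library the share was 97.7% of the called genes, against 71.3% of all genes, and the correlation across the called genes was 0.853, as a description. *Piezo1* itself had −1.33 in si-P1 against si-Ctrl, and *Muc13* had −1.24.

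**Figure D5:**
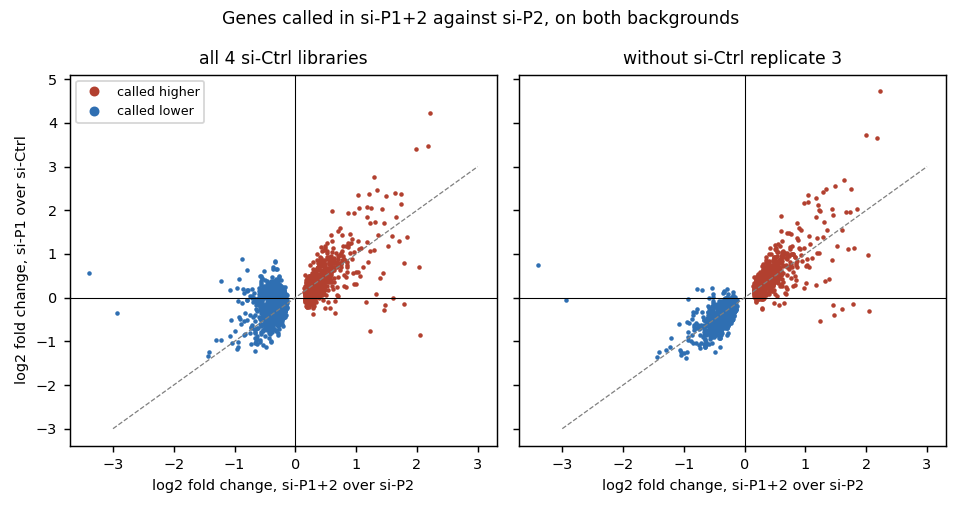
Log2 fold change of si-P1 over si-Ctrl (vertical axis) against that of si-P1+2 over si-P2 (horizontal axis) for the 1780 genes called in si-P1+2 against si-P2, with all 4 si-Ctrl libraries (left) and without si-Ctrl replicate 3 (right); the dashed line marks equal values. The share of genes with the same sign is 79.2% on the left and 97.7% on the right, a setting not listed at the outset.

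The difference between the effects of the *Piezo1* siRNA on both backgrounds, tested as an interaction over 16 libraries, was called for 0 of 15802 genes (0%) in limma, with 1319 at an unadjusted p under 0.05. It was called for 0 in edgeR, 55 in DESeq2 and 79 with the replicate block. Without si-Ctrl replicate 3, limma called 8 genes (0.0506%). The fold change of *Cartpt* was 2.22 on the *Piezo2* siRNA background and 4.24 on the non-targeting background, a difference of −2.02 (95% confidence interval −3.67 to −0.37, adjusted p = 0.553, limma). For *Gast* the values were 1.99 and 3.42 (difference −1.43, interval −2.505 to −0.34, adjusted p = 0.518). *Mest* had 1.247 and 2.06 (difference −0.81, interval −1.37 to −0.25, adjusted p = 0.473) and *Fam151a* 1.05 and 2.04 (difference −0.99, interval −1.45 to −0.53, adjusted p = 0.304). Of these 4, *Fam151a* was among the 8 genes called without si-Ctrl replicate 3 (difference −1.15, adjusted p = 0.0269). A p that misses the threshold does not show that the effects were equal.

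The levels in the other groups set these values in context. *Cartpt* averaged 2042 ± 979 in si-P1, 132 ± 110 in si-Ctrl and 68.2 ± 53.6 in untransfected cells (SD, n = 4 each), and *Gast* 2955 ± 1420, 273 ± 142 and 170 ± 51.1 in the same order. For both, the si-P1+2 mean lay between the si-P1 and the si-P2 mean. *Muc13* averaged 26150 ± 1405 in si-P2, 6800 ± 937 in si-P1, 15950 ± 727 in si-Ctrl and 25800 ± 2606 in untransfected cells, so its si-P2 mean was closer to that of untransfected cells than to that of si-Ctrl.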

How the data were processed

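Total RNA of INS-1 832/13 cells was sequenced as poly(A) libraries. The submitters' processing notes name the build Rnor_6.0 and the tools Salmon (0.14.0), DESeq2 (1.25.10), MultiQC (1.7) and FastQC (0.11.8). The deposited signal values are the authors' normalized counts, that is counts divided by 1 size factor per library. All values (100%) were whole multiples of one step within 0.001, so whole reads were recovered for the count-based alternatives, and how transcripts were summed to genes is not given in the sources used here. All 20 columns matched a sample (0 without one). Log2(value + 1) of 15802 genes in the 8 libraries of si-P1+2 and si-P2 was fitted in limma (3.58.1, R 4.3.3) with a variance trend, two-sided tests and Benjamini-Hochberg adjustment at 0.05. The interaction used 16 libraries. Alternatives included edgeR (4.0.16) and DESeq2 (1.42.0) on the recovered reads. The methods were also run on simulated counts drawn independently for each library. Those counts held neither a pairing by replicate number nor the direction of si-Ctrl replicate 3, so that run does not bear on either.

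Between si-P1+2 and si-P2, the departures of libraries with one number from their group means correlated at 0.481, 0.271, 0.444 and 0.465, each above its highest correlation with another number. Fits with the replicate number as a block are therefore given as alternatives. The main limma fit and the interaction have no block, so their p-values and calls leave this pairing out. The labels give the numbers no meaning.

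Named genes were *Piezo1*, *Piezo2*, the 12 largest called rises and falls with a mean of at least 100 in the higher group, no overlap and a symbol (names such as LOC or AABR numbers did not count), and up to 4 called members of each of 32 lists by adjusted p, or 2 where none was called. The members, lists and rules were chosen with earlier results of these data known. Of 1695 list entries, 1639 matched a symbol of the table, 22 symbols through a RefSeq synonym, and 5 synonyms that point to another gene were dropped. Dates stand in place of 14 names and 77 symbols sit on more than 1 gene number; these entries were kept apart. The 7685 untested genes hold 0.00569% of the reads. Results of some named genes are not reported here.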

Additional observations from a re-analysis of the deposited data

Results flagged for a closer look

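The 4 values of each group were checked for 1 library far from the other 3, in 127 named genes. Of 254 groups 10 were picked out, or 3.94%, where chance alone picks about 1 in 20. In si-P1+2, *Traf6* had 501 normalized counts in replicate 1 against 418 to 424 in the others, *Sc5d* 1156 in replicate 2 against 1131 to 1133, and *Btg2* 3161 in replicate 2 against 4176 to 4280. In si-P2, *Tmem63b* had 4127 in replicate 2 against 3907 to 3945, *Calcrl* 103.5 in replicate 2 against 68.8 to 71.5, and *Parp14* 252.5 in replicate 3 against 191 to 198. Also in si-P2, replicate 4 had 3.765 of *Ntsr1* against 12.7 to 13.8, 2343 of *Traf3* against 2601 to 2650 and 2206 of *Pfkfb2* against 2652 to 2699, and replicate 1 had 151300 of *Rplp0* against 140900 to 142100. None of the 24 leading genes was among them.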

How the results depend on the processing

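The 1780 genes called in si-P1+2 against si-P2 became 395 with all 20 libraries in the fit, 719 with no variance trend, and 708 to 2164 when one library was left out in turn. With the replicate block there were 5141, with the direction of si-Ctrl replicate 3 removed 925, and with both 4358. The interaction, 0 genes, gave 1 with all 20 libraries, 79 with the replicate block, 55 with DESeq2, and 0 to 8 when one library was left out. The share of called genes with the same direction in si-P1 against si-Ctrl, 79.2%, was 98.5% with all 20 libraries, 94.1% with all 20 and the replicate block, 70.0% with the block alone, 87.2% with no variance trend, 82.4% with quantile normalization, 84.9% with edgeR and 81.5% with DESeq2. It was 95.7% with the direction removed, 84.4% with the block as well, 97.7% without si-Ctrl replicate 3, and 72.6% to 89.7% when one of the 8 libraries compared was left out. The cause of these moves was not tested. Of the 24 leading genes, 16 kept direction and call under all 21 alternatives listed at the outset, and no called gene among those named reversed. The removal of the direction was chosen after seeing the data. For the share with the same direction, the setting without si-Ctrl replicate 3 was also not among those alternatives. In the fit of all 20 libraries, *Cartpt* (adjusted p = 0.0769), *Wnk3*, *Ino80d*, *Setd7*, *Abl1* and *Hipk2* lost their calls. *Piezo2* rested on a few normalized counts per library, and a change between the groups was not detectable at this depth.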

Other observations

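In 22 tested proton pump genes 4 were higher (18.2%) and 3 lower (13.6%) in si-P1+2 than in si-P2, against 5.20% and 6.06% of all genes. The higher count was 0 without si-P2 replicate 2, with all 20 libraries in the fit, or with the direction of si-Ctrl replicate 3 removed. *Atp6v0d1*, of the membrane sector, had 7055, 6462, 6527 and 5875 normalized counts in si-P1+2, against 9094, 8662, 8510 and 8630 in si-P2 (log2 fold change −0.43, adjusted p = 0.00240, limma), while *Atp6v1e1*, of the cytosolic sector, had 0.20 and lost its call in 2 of the 8 fits that left out one library. In 49 genes of TGF-β and BMP signalling 1 was higher (2.04%) and 7 lower (14.3%), against the same shares of all genes. The lower count was 2 without si-P2 replicate 2 and 0 in the fit of all 20 libraries. *Smad4*, the shared partner of the receptor-activated SMADs, averaged 2002 ± 68.8 in si-P1+2 and 2357 ± 94.8 in si-P2 (SD, n = 4 each; −0.23, and −0.10 with adjusted p = 0.172 when the direction of si-Ctrl replicate 3 was removed), and *Smurf2*, a ubiquitin ligase of the pathway, had −0.30.

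In 29 targets or partners of YAP and TAZ 4 were higher (13.8%) and 1 lower (3.45%), against 5.20% and 6.06% of all genes (1 higher without si-P2 replicate 2). *F3*, tissue factor, had 2470, 3116, 2915 and 2904 in si-P1+2, against 2058, 2232, 2165 and 2220 in si-P2 (0.39, adjusted p = 0.00732, limma), and *Tead1*, the DNA-binding partner, had −0.52 (−0.10, adjusted p = 0.566 with the direction of si-Ctrl replicate 3 removed). In 76 genes of the extracellular matrix and integrins 3 were higher (3.95%) and 0 lower, below the shares over all genes (1 higher without si-P2 replicate 2). Among the 3 was the heparan sulfate proteoglycan *Gpc4*, with 4165, 4519, 4983 and 5162 in si-P1+2 against 3299, 3142, 3547 and 3239 in si-P2 (0.51, adjusted p = 0.00332, limma). In 40 genes of TNF receptors and NF-κB signalling 3 were higher and 3 lower (7.50% each, near the 5.20% and 6.06% of all genes). *Tnfrsf9*, the receptor 4-1BB, had 0.48, and the adaptors *Traf3* and *Traf5* both had −0.36. Of 26 markers of non-endocrine cells 3 were higher (11.5%) and 0 lower, against 5.20% and 6.06% of all genes. *Ctrb1*, a digestive enzyme precursor of acinar cells, averaged 64.0 ± 32.3 in si-P1+2 and 19.2 ± 4.53 in si-P2 (1.596, adjusted p = 0.0127, limma).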
